A study of Mus musculus with 16 samples.

Results

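The genes of MHC class I antigen presentation were described in sorted luminal mammary cells, across mice with and without a floxed p38a allele and with and without the PyMT oncogene. The set holds 10 genes, namely H2-K1, H2-D1, B2m, Tap1, Tap2, Tapbp, Psmb8, Psmb9, Psmb10 and Nlrc5. Its probe sets were those annotated to exactly 1 gene symbol, which left 18 of 28898 such probe sets for 7 of the 10 genes. B2m, Tap1 and Tap2 had no such probe set in the annotation used and were not analysed here, and 5 probe sets annotated to H2-K1 and H2-D1 together were not used. Values are log2 signals from RMA, which corrects background, equalises the distributions of the arrays and summarises probes. After a filter at 3.67, the 25th percentile of all probe set means, 16 probe sets of 6 genes were tested, while Nlrc5 and 1 of the 2 probe sets of Psmb8 (1444619_PM_x_at) fell below it.

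Each of 4 groups had 4 arrays, 16 in all. The first was p38a-lox, MMTV-Cre, MMTV-PyMT at 6 weeks of age, called p38a-lox PyMT here, and the second MMTV-Cre, MMTV-PyMT at 6 weeks, called PyMT. The third was p38a-lox, MMTV-Cre at 9 weeks, called p38a-lox, and the fourth MMTV-Cre at 9 weeks. Every group carried MMTV-Cre, which expresses Cre recombinase under a mouse mammary tumour virus promoter active in mammary epithelium, and MMTV-PyMT places the polyoma middle T antigen under the same kind of promoter. PyMT and age cannot be told apart, because arrays with PyMT were all from the younger mice. Replicate numbers used here follow the order of the samples within each group, and equal numbers pair no arrays between groups. Every sample title opens with MCLFVB, which the labels do not explain. They name no zygosity, no strain, no batch and no pairing, nor whether any arrays share a mouse, so p-values measure the spread between these samples, which may be technical. The p38a-lox comparisons ask whether class I genes depend on the stress-activated kinase p38a in luminal cells, and the PyMT comparisons ask what accompanied the oncogene.

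Class I molecules show peptides from a cell's own proteins to CD8+ T cells on the surface of nearly all nucleated cells. The heavy chains H2-K1 and H2-D1 pair with beta-2-microglobulin, encoded by B2m. Peptides are cut by the proteasome, whose inducible catalytic subunits are Psmb8, Psmb9 and Psmb10, enter the endoplasmic reticulum through the Tap1 and Tap2 transporter, and are loaded with help from tapasin, encoded by Tapbp. Nlrc5 is a transcriptional activator of the class I promoters, and interferon gamma induces most genes of the pathway.

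In the RefSeq annotation of GRCm38.p6, 7 of the 10 genes lie on chromosome 17, 2 (Psmb10 and Nlrc5) on chromosome 8 and 1 (B2m) on chromosome 2. H2-K1 lies at chr17:33996012-34000619, Psmb9 at chr17:34182030-34187330, Tap1 at chr17:34187556-34197225, Psmb8 at chr17:34198195-34201454 and H2-D1 at chr17:35263094-35267497. Psmb9 and Tap1 are divergent neighbours with 225 bases between them. Promoter windows of 300 bases around a listed transcription start were available for 8 members. Those of 7 members lie mostly upstream of the gene and end just inside it, while the H2-K1 window lies wholly within the gene span given above. Of the windows 3 are shown because the heavy chain pair shares its motifs and the Psmb9 window is nearly the Tap1 window. Capitals mark matches, on either strand, to GAANNGAAA (the core of an interferon-stimulated response element), GGGNNTTCC (kappa-B-like), TGACG (the core of a cyclic AMP response element) and CCAAT. The H2-K1 window is the minus strand of chr17:34000298-34000597, the H2-D1 window the plus strand of chr17:35262844-35263143, and the Psmb9 window the minus strand of chr17:34187281-34187580.
H2-K1: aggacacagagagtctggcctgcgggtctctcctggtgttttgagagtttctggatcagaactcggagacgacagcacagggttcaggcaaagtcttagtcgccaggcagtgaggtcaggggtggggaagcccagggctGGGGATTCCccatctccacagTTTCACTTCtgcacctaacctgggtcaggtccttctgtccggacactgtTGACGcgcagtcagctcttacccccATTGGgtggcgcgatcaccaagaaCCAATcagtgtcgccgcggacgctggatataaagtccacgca
H2-D1: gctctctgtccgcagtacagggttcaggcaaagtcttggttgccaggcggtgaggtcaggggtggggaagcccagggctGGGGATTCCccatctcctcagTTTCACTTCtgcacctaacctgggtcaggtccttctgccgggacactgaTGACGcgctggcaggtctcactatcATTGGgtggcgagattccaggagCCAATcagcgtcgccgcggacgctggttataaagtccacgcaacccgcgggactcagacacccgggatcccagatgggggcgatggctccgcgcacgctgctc
Psmb9: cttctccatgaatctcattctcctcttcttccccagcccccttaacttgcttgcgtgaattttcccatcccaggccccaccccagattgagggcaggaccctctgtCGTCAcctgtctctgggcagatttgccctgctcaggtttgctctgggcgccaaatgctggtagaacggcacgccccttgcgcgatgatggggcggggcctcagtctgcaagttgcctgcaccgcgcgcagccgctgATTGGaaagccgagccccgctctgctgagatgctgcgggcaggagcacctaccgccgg
The H2-K1 and H2-D1 windows aligned over 239 bases, of which 211 (88.3%) were identical. Each held 1 GAANNGAAA match and 1 GGGNNTTCC match, found in 2 of the 8 member windows against 7.56% and 5.72% of 27025 RefSeq promoter windows of the same length. TGACG was in 5 of the 8 (B2m, H2-K1, Psmb9, Tap1 and H2-D1) against 21.0% of all windows. CCAAT was in 6 of the 8 (those 5 and Tapbp) against 37.9%. The Psmb9 and Tap1 windows share 275 bases, read on opposite strands. The Psmb8 and Psmb10 windows held no match to any of these letters. A match is a description of the letters and not a binding site.

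Across the series, pairs of arrays correlated between 0.885 and 0.990. The luminal identity of the cells was measured on its markers, each by its mean over the 16 arrays. For 14 of 14 this mean lay above the median of all probe set means. The keratin Krt8 ranged from 12.14 to 12.54 over the arrays and the adhesion molecule Epcam from 10.93 to 11.99. Foxa1 had the lowest mean of the 14 (5.15) and ranged from 3.91 to 8.77, so it was not bright on every array. The median of the 14 lay at percentile 97.2 of all probe sets. This measure was not specific to luminal cells, since 8 of 8 basal markers and 5 of 9 fibroblast markers also lay above the median of all probe set means. Their median percentiles were 75.4 and 72.1. The fibroblast markers Col1a2, Pdgfra and Lum lay below the filter and were not tested. Of 21 leukocyte markers, 16 of them tested, 8 lay above the median of all probe set means. The pan-leukocyte marker Ptprc read 2.71 to 3.14, and with the T cell marker Cd3e, the B cell marker Ms4a1 and the natural killer marker Ncr1 it lay below the filter. The mean level of the 16 leukocyte genes ran from 5.19 to 5.30 in p38a-lox PyMT, 5.20 to 5.65 in PyMT, 4.90 to 5.43 in p38a-lox and 5.02 to 5.23 in MMTV-Cre. The targeted gene Mapk14 had 6 probe sets: the mean of 5 was lower in p38a-lox PyMT than in PyMT, and that of 0 lower in p38a-lox than in MMTV-Cre. The 5 lower ones differed by −0.013 to −0.38, 4 of them by no more than −0.11, and the brightest was higher in both comparisons, by 0.029 with PyMT and 0.78 without. The sources used here do not give where its deleted part and its probes lie, so its signal does not check the genotype.

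The heavy chain H2-K1, which presents peptides at the cell surface, was bright on every array. Its brightest probe set, 1425336_PM_x_at, read 12.25, 12.26, 12.02 and 12.35 in p38a-lox PyMT, 12.37, 12.37, 12.30 and 11.91 in PyMT, 12.58, 12.33, 12.26 and 12.31 in p38a-lox, and 12.56, 12.45, 12.10 and 12.04 in MMTV-Cre. The 4 groups overlapped, with the lowest value in PyMT replicate 4 and a range of under 1 log2 unit over all arrays. The second probe set, 1427746_PM_x_at, read 11.12, 11.25, 11.06 and 11.26 in p38a-lox PyMT, 11.31, 11.28, 11.41 and 10.58 in PyMT, 11.77, 11.57, 11.46 and 11.42 in p38a-lox, and 11.88, 12.07, 11.32 and 11.28 in MMTV-Cre. Here every p38a-lox PyMT array lay below every p38a-lox array, while PyMT overlapped MMTV-Cre. The third, 1424948_PM_x_at, had the same arrangement, with 9.99 to 10.28 in p38a-lox PyMT, 9.60 to 10.60 in PyMT, 10.43 to 10.67 in p38a-lox and 10.36 to 11.05 in MMTV-Cre. The fourth, 1450534_PM_x_at, ran from 6.18 to 7.04 over the 16 arrays.

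The heavy chain H2-D1 is closely related to H2-K1, and 4 of its 5 probe sets, like all 4 of H2-K1, carry the suffix x_at, given to probes that can also bind other transcripts. Signal can therefore be shared within the class I family, and these probe sets are not independent readings. The brightest, 1451784_PM_x_at, read 11.47, 11.22, 11.36 and 11.45 in p38a-lox PyMT, 11.35, 11.12, 11.56 and 10.98 in PyMT, 11.81, 11.60, 11.56 and 11.58 in p38a-lox, and 11.87, 12.09, 11.54 and 11.48 in MMTV-Cre. Every p38a-lox PyMT array lay below every p38a-lox array, and PyMT overlapped MMTV-Cre through PyMT replicate 3. A second probe set, 1450170_PM_x_at, read 8.35 to 8.98 in p38a-lox PyMT, 8.92 to 9.62 in PyMT, 9.01 to 9.60 in p38a-lox and 8.70 to 9.57 in MMTV-Cre, so p38a-lox PyMT again lay below p38a-lox. The third, 1427651_PM_x_at, ran the other way with PyMT, at 6.22 to 6.92 in p38a-lox PyMT, 6.49 to 7.15 in PyMT, 6.01 to 6.82 in p38a-lox and 5.87 to 6.56 in MMTV-Cre. The remaining 1452544_PM_x_at and 1451934_PM_at ran from 5.98 to 7.18 and from 4.75 to 5.35, with all groups overlapping.

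Of the inducible proteasome subunits, Psmb8 replaces a constitutive catalytic subunit when the immunoproteasome forms. Its tested probe set, 1422962_PM_a_at, read 10.17, 9.23, 9.34 and 9.37 in p38a-lox PyMT, 9.59, 9.00, 9.26 and 8.13 in PyMT, 9.72, 10.58, 10.06 and 10.09 in p38a-lox, and 9.95, 10.77, 9.58 and 9.56 in MMTV-Cre. Only PyMT replicate 1 (9.59) reached the MMTV-Cre range, and 3 of the 4 p38a-lox PyMT arrays lay below all p38a-lox arrays. The other probe set, 1444619_PM_x_at, stayed between 2.71 and 3.40 on all arrays, below the filter.

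Psmb9, the partner subunit encoded next to Tap1, had 3 probe sets that did not read alike. The probe set 1450696_PM_at read 7.11, 7.06, 6.54 and 6.95 in p38a-lox PyMT, 7.03, 6.52, 6.84 and 6.14 in PyMT, 6.91, 7.34, 7.86 and 8.05 in p38a-lox, and 7.44, 8.64, 6.96 and 7.26 in MMTV-Cre. Means with PyMT were lower, and PyMT overlapped MMTV-Cre by PyMT replicate 1 and MMTV-Cre replicate 3. The probe set 1416016_PM_at, which had the highest mean and stood for the gene, read 7.94, 7.09, 7.22 and 7.42 in p38a-lox PyMT, 7.87, 7.52, 7.16 and 7.49 in PyMT, 7.05, 7.87, 7.71 and 7.98 in p38a-lox, and 7.32, 7.74, 7.36 and 7.20 in MMTV-Cre, with all groups overlapping. It and 1448177_PM_at (5.10 to 5.87) are tied in the array annotation to an expressed sequence tag and 1450696_PM_at to a RefSeq transcript, so the name of the first pair is less certain. Other annotations of this probe design give 1416016 to Tap1, so the Psmb9 values at the level of genes below, which use 1416016_PM_at, may be those of Tap1.

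The third inducible subunit, Psmb10, read 8.21, 8.21, 8.29 and 8.34 in p38a-lox PyMT, 8.52, 7.64, 8.63 and 7.93 in PyMT, 7.39, 8.74, 8.51 and 8.55 in p38a-lox, and 7.82, 9.05, 7.68 and 7.54 in MMTV-Cre (1448632_PM_at). All groups overlapped, with the tightest values in p38a-lox PyMT (SD 0.0653, n = 4) and the widest in MMTV-Cre (SD 0.696, n = 4).

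Tapbp, the tapasin gene, varied widely among arrays of the same group. Its brighter probe set, 1421812_PM_at, read 9.68, 9.97, 9.23 and 8.84 in p38a-lox PyMT, 10.78, 9.83, 9.90 and 9.18 in PyMT, 8.46, 9.55, 9.36 and 9.19 in p38a-lox, and 9.40, 10.64, 8.46 and 8.15 in MMTV-Cre. The MMTV-Cre arrays alone spanned over 2 log2 units (SD 1.12, n = 4), and MMTV-Cre replicate 2 had the highest value of its group here and for Psmb8, Psmb10 and 2 of the 3 Psmb9 probe sets too. The second probe set, 1450378_PM_at, ran from 7.04 to 9.02 with the same high array in MMTV-Cre.

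The activator Nlrc5 had 1 probe set, 1437176_PM_at, at 3.51, 3.46, 3.31 and 3.47 in p38a-lox PyMT, 3.35, 3.70, 3.38 and 4.03 in PyMT, 3.84, 4.03, 3.46 and 3.82 in p38a-lox, and 3.48, 3.58, 3.50 and 3.54 in MMTV-Cre. Its mean of 3.59 lay below the filter. Fitted without the filter, it differed by −0.35 ± 0.148 between p38a-lox PyMT and p38a-lox (limma adjusted p = 0.385), the smallest adjusted p of its 4 group comparisons.

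**Figure D1:**
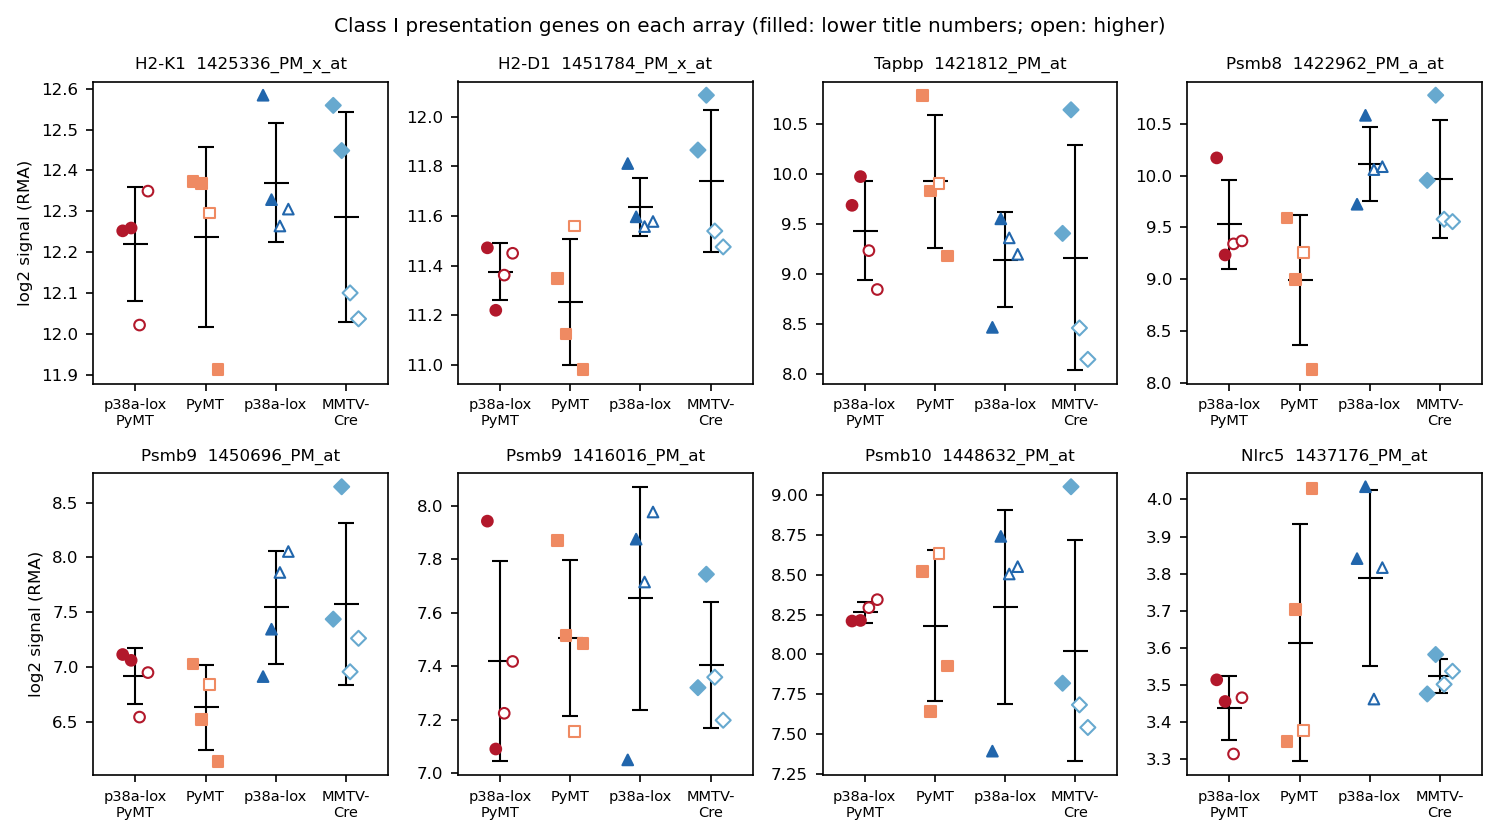
Log2 signal of 8 member probe sets (1 panel each, with its own axis) on each array of the 4 groups; horizontal lines are means, bars are ± SD of 4 arrays, filled symbols are arrays with lower title numbers and open symbols those with higher ones. Psmb8 and the Psmb9 probe set 1450696_PM_at have lower means in both PyMT groups, while MMTV-Cre arrays of Tapbp span 8.15 to 10.64.

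The comparison of p38a-lox with MMTV-Cre found no called class I gene. By limma with Benjamini-Hochberg adjustment 0 of 6 members passed an adjusted p of 0.05, where 0% of the 14410 genes tested did, and 0 of 6 members had an unadjusted p under 0.05, where 4.79% of genes did. The heavy chains differed by 0.084 ± 0.151 for H2-K1 (SE here and below; 95% interval −0.24 to 0.41) and −0.11 ± 0.157 for H2-D1 (−0.44 to 0.23). The proteasome subunits differed by 0.15 ± 0.334 for Psmb8, 0.25 ± 0.23 for Psmb9 and 0.27 ± 0.342 for Psmb10. Tapbp differed by −0.020 ± 0.475, with an interval from −1.03 to 0.99. The adjusted p was 0.999 for each of the 6. Their median difference was 0.11, beside 0.0005 over all genes tested. For 4 of the 6 genes the interval lay within a 2-fold change in either direction; Tapbp and Psmb10 were not bounded that closely. Among the 16 probe sets 0 were called, against 0% of 22996, and 8 differences were positive and 8 negative.

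These small differences combined opposite ones. The sample titles carry numbers in a lower and a higher range, which the labels do not explain, and each range holds 2 arrays of each of these groups. In 13 of the 16 probe sets the p38a-lox difference turned its sign between the ranges, as it did in 64.3% of all 22996 probe sets. The median difference over the 16 was −0.24 in the lower range and 0.18 in the higher one. Tapbp (1421812_PM_at) gave −1.01 and 0.97, and Psmb9 (1450696_PM_at) gave −0.91 and 0.85, in the lower and the higher range. With the range as a block 0 members were called.

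**Figure D2:**
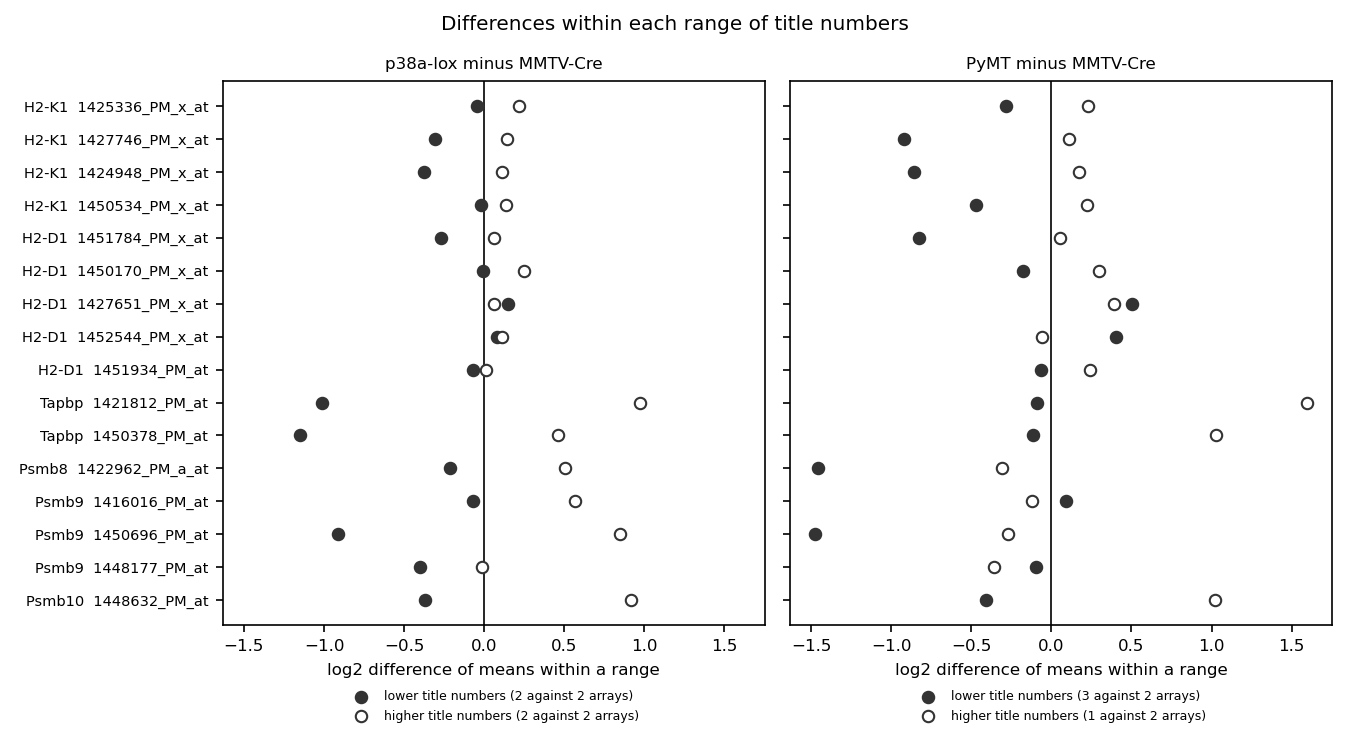
Log2 difference of group means for the 16 tested probe sets within the lower (filled) and higher (open) range of title numbers, for p38a-lox minus MMTV-Cre on the left and PyMT minus MMTV-Cre on the right. On the left 13 of 16 probe sets lie on opposite sides of 0 in the 2 ranges, and on the right 12 of 16, where the higher range holds 1 PyMT array.

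In PyMT mice the comparison of p38a-lox PyMT with PyMT also found no called class I gene. By limma 0 of 6 members passed, against 0% of genes, and 0 of 6 had an unadjusted p under 0.05, against 3.58%. Psmb8 had the largest positive difference, 0.54 ± 0.334 (−0.18 to 1.25), and Tapbp the largest negative one, −0.49 ± 0.475 (−1.50 to 0.52). With 1 array left out these ran from 0.25 to 0.73 and from −0.74 to −0.20. H2-K1 differed by −0.016 ± 0.151 and H2-D1 by 0.12 ± 0.157, Psmb9 by −0.088 ± 0.23 and Psmb10 by 0.086 ± 0.342, each with adjusted p = 0.999. The median was 0.035, beside −0.039 over all genes. Of the 16 probe sets 0 were called, against 0%, and 1 had an unadjusted p under 0.05, against 3.69%. It was the H2-D1 probe set 1450170_PM_x_at (−0.49 ± 0.218, limma adjusted p = 0.9995), where PyMT replicate 2 lay within the range of p38a-lox PyMT. In 8 of the 16 probe sets the sign turned between title ranges, against 50.8% of all.

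The interaction, which is the p38a-lox difference with PyMT minus that without, was called by limma for 0 of 6 members, against 0% of genes. Estimates were −0.10 ± 0.213 for H2-K1, 0.23 ± 0.223 for H2-D1, 0.39 ± 0.472 for Psmb8, −0.34 ± 0.326 for Psmb9, −0.19 ± 0.484 for Psmb10 and −0.47 ± 0.672 for Tapbp. Each adjusted p was 0.992. The intervals were wide, with 2 of 6 inside a 2-fold change and Tapbp between −1.90 and 0.96.

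In the comparison of PyMT with MMTV-Cre the lowest estimates among the class I genes belonged to Psmb8 and H2-D1, yet no member passed the threshold. Psmb8 averaged 8.99 ± 0.627 in PyMT and 9.97 ± 0.569 in MMTV-Cre (SD, n = 4 each), a difference of −0.97 ± 0.334 (−1.68 to −0.26, limma adjusted p = 0.181). H2-D1 averaged 11.25 ± 0.254 in PyMT and 11.74 ± 0.286 in MMTV-Cre (SD, n = 4 each), a difference of −0.49 ± 0.157 (−0.82 to −0.15, limma adjusted p = 0.151). These 2 of 6 had an unadjusted p under 0.05, both lower, where 5.98% of genes were lower and 13.8% passed in either direction. By the adjusted p 0 of 6 members were called, against 1.26% of genes. The other differences were −0.049 ± 0.151 for H2-K1, 0.10 ± 0.23 for Psmb9, 0.16 ± 0.342 for Psmb10 and 0.76 ± 0.475 for Tapbp (−0.25 to 1.78, limma adjusted p = 0.538). Their median was 0.026, beside 0.030 over all genes. With array quality weights Tapbp was called (1.53, limma adjusted p = 0.039), where 1268 of the 14410 genes tested were called with those weights. H2-D1 differed by 0.12 when its probe sets were averaged.

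Over the 16 probe sets 0 were called in this comparison, against 1.06%, and 6 had an unadjusted p under 0.05, against 13.7%. The 5 lower ones were Psmb8 (1422962_PM_a_at), H2-D1 (1451784_PM_x_at), H2-K1 (1427746_PM_x_at, −0.49 ± 0.204, and 1424948_PM_x_at, −0.47 ± 0.2) and Psmb9 (1450696_PM_at). The last averaged 6.63 ± 0.389 in PyMT and 7.57 ± 0.74 in MMTV-Cre (SD, n = 4 each), a difference of −0.94 ± 0.335 (limma adjusted p = 0.203). The 1 higher was the H2-D1 probe set 1427651_PM_x_at (0.57 ± 0.213, limma adjusted p = 0.225), opposite to the brightest probe set of the same gene. Within the title ranges 12 of 16 turned, against 47.2% of all, and the higher range holds a single PyMT array. Of the 5 lower probe sets 3 turned, with −0.83 and 0.053 for H2-D1 (1451784_PM_x_at), −0.92 and 0.11 for H2-K1 (1427746_PM_x_at) and −0.86 and 0.17 for H2-K1 (1424948_PM_x_at) in the lower and the higher range. The other 2 were lower in both, at −1.46 and −0.31 for Psmb8 and −1.48 and −0.27 for Psmb9 (1450696_PM_at). Age moves with PyMT in every one of these values.

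In the comparison of p38a-lox PyMT with p38a-lox the heavy chain probe sets separated the groups most often. Of the 16 probe sets 4 had every p38a-lox PyMT array below every p38a-lox array, where 3.73% of all probe sets did, and none lay above. They were 1424948_PM_x_at (−0.39 ± 0.2) and 1427746_PM_x_at (−0.38 ± 0.204) for H2-K1, and 1450170_PM_x_at (−0.51 ± 0.218) and 1451784_PM_x_at (−0.26 ± 0.158) for H2-D1. Because these can share signal, the 4 do not count as separate observations, and their limma adjusted p ran from 0.350 to 0.568. By limma 0 of 16 probe sets were called, against 0.613%, and 1 had an unadjusted p under 0.05 (1450170_PM_x_at), against 12.4%.

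At the level of genes 0 of 6 members were called in that comparison, against 0.777% of genes, and 0 had an unadjusted p under 0.05, against 12.2%. H2-D1 was the 1 of 6 whose groups did not overlap downwards, against 3.75% of genes (−0.26 ± 0.157, limma adjusted p = 0.566). Psmb8 averaged 9.53 ± 0.432 in p38a-lox PyMT and 10.11 ± 0.353 in p38a-lox (SD, n = 4 each), a difference of −0.58 ± 0.334 (−1.29 to 0.13, limma adjusted p = 0.535). H2-K1 differed by −0.15 ± 0.151, Psmb9 by −0.24 ± 0.23, Psmb10 by −0.032 ± 0.342 and Tapbp by 0.29 ± 0.475, with limma adjusted p from 0.765 to 0.987. The median was −0.19, beside −0.021 over all genes. The probe set 1450696_PM_at of Psmb9 differed by −0.63, and with array quality weights by −0.93 with a limma adjusted p of 0.019. With those weights 1416 of the 14410 genes tested were called in this comparison. In 6 of 16 probe sets the sign turned between title ranges, against 44.8% of all.

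**Figure D3:**
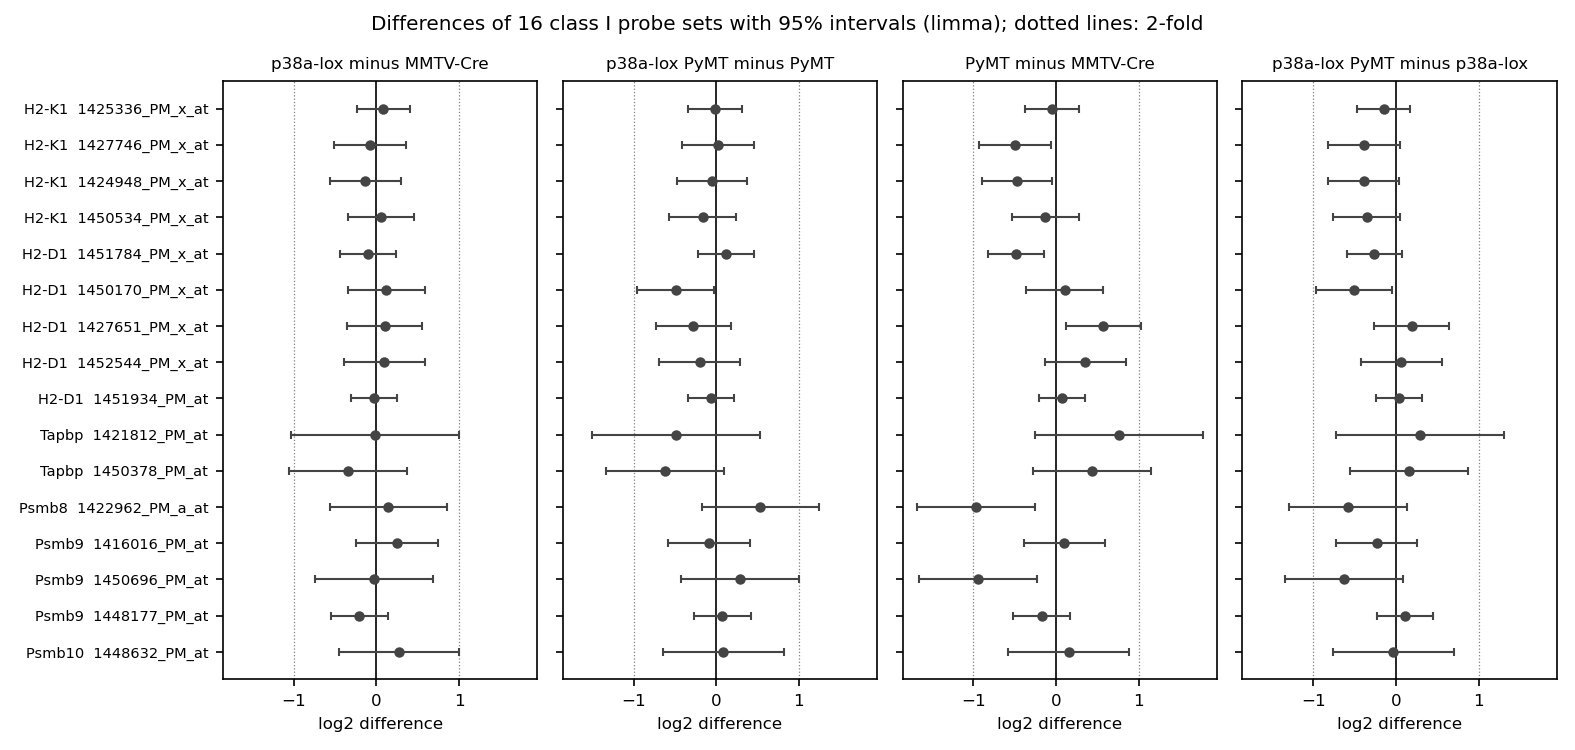
Log2 differences of the 16 tested probe sets in 4 comparisons (1 panel each), as limma estimates with 95% intervals, with dotted lines at a 2-fold change. In both PyMT comparisons on the right Psmb8 and 1450696_PM_at of Psmb9 lie left of 0, and Tapbp has the widest intervals, reaching 1.78 in PyMT minus MMTV-Cre.

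In these bulk samples, fewer cells of a type and less RNA per cell cannot be told apart. Among markers of other cells, the 8 tested basal markers had a median difference of 1.28 in PyMT against MMTV-Cre and 1.61 in p38a-lox PyMT against p38a-lox, with 1 (the transcription factor Trp63) and 0 called by limma. Their mean level ran from 7.33 to 8.14 in p38a-lox PyMT, 7.12 to 8.00 in PyMT, 5.37 to 7.23 in p38a-lox and 5.76 to 7.57 in MMTV-Cre. The 6 tested fibroblast markers had a median difference of 0.74 in PyMT against MMTV-Cre (5 of 6 above 0) and 0.46 in p38a-lox PyMT against p38a-lox (6 of 6), with 0 called by limma in either. Their mean level ran from 5.41 to 6.90 in p38a-lox PyMT, 5.55 to 6.89 in PyMT, 5.31 to 5.62 in p38a-lox and 5.66 to 6.67 in MMTV-Cre. The 10 endothelial markers had medians of −0.0048 and 0.0021 in these comparisons. For the labelled cells, the 14 luminal markers had a median difference of −0.39 in PyMT against MMTV-Cre (5 of 14 above 0). It was 0.0060 in p38a-lox PyMT against p38a-lox (7 of 14), with 0 called by limma in either. The neutrophil gene S100a8 averaged 7.02 in p38a-lox PyMT, 9.05 in PyMT, 5.11 in p38a-lox and 4.89 in MMTV-Cre. By limma 1 of the 16 tested leukocyte markers was called higher in each PyMT comparison: S100a8 in PyMT against MMTV-Cre (4.16 ± 0.597, adjusted p = 0.005) and the macrophage marker Cd68 in p38a-lox PyMT against p38a-lox (2.74 ± 0.56, adjusted p = 0.0357). The 16 had a median difference of 0.032 in the first (11 of 16 above 0) and −0.050 in the second (6 of 16). Cd14 ran opposite to Cd68, at 7.84 in p38a-lox PyMT and 8.82 in p38a-lox. The part of these cells in the class I values was not tested. Ptprc, at 2.71 to 3.14, showed no signal above the filter on any array.

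Probe sets of one gene did not always vary together. Over the 16 arrays, which fall into the 4 groups and 2 title ranges, the 6 pairs of H2-K1 probe sets correlated at 0.68 to 0.93 (Pearson) and the Tapbp pair at 0.91. The 10 pairs of H2-D1 probe sets correlated at −0.48 to 0.58. The brightest H2-D1 probe set followed the 4 H2-K1 probe sets instead, at 0.63 to 0.91. The 3 pairs of Psmb9 probe sets correlated at 0.16 to 0.45, while 1450696_PM_at followed Psmb8 at 0.84 and 1416016_PM_at followed it at 0.49. After removal of the group means these were 0.72 and 0.64. Between genes, H2-D1 and Psmb8 correlated at 0.81, Tapbp and Psmb10 at 0.67, H2-K1 and H2-D1 at 0.63, and H2-D1 and Tapbp at 0.028. After removal of the group means H2-D1 and Tapbp correlated at 0.54 and Tapbp and Psmb8 at 0.81.

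**Figure D4:**
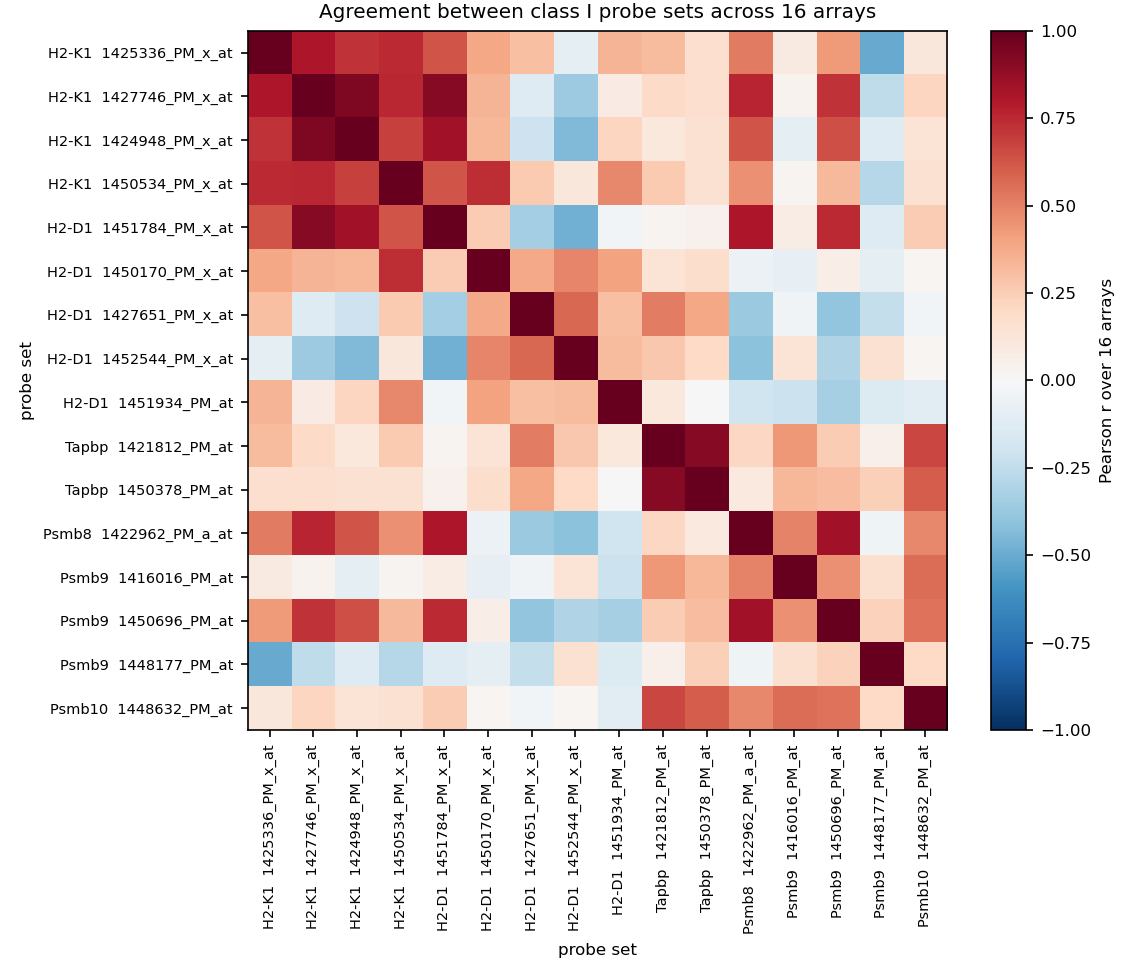
Pearson correlation over the 16 arrays between the 16 tested probe sets, coloured from −1 (blue) to 1 (red), in the same gene order on both axes. The 4 H2-K1 probe sets and 1451784_PM_x_at of H2-D1 form a red block (0.63 to 0.93), while 1427651_PM_x_at and 1452544_PM_x_at of H2-D1 lie in blue against 1451784_PM_x_at.

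The mean of the 6 tested members ran from 9.58 to 9.96 in p38a-lox PyMT, 9.27 to 10.08 in PyMT, 9.50 to 10.11 in p38a-lox and 9.33 to 10.46 in MMTV-Cre. The lowest array was PyMT replicate 4 and the highest MMTV-Cre replicate 2. The 8 genes whose values followed this mean most closely were Plxnb2 (Pearson 0.866), Spr (0.860), Mmgt2 (0.848), Tor4a (0.835), Tgm2 (0.823), Oplah (0.818), Cavin3 (0.802) and Pcnx4 (0.800). They were taken from all tested genes for this correlation over 16 arrays, and it was 0.809 to 0.913 on deviations from the group means.

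Other genes of the pathway were taken from lists of named genes. Among 11 tested genes of peptide loading and trimming 0 were called by limma in any of the 5 comparisons. Calr, a chaperone of the loading complex, had the smallest p there, at 10.76 in p38a-lox PyMT and 10.18 in p38a-lox (0.57 ± 0.156, limma adjusted p = 0.11). In that comparison 4 of the 11 were positive (median −0.084, beside −0.021 over all genes). In p38a-lox against MMTV-Cre 2 were positive (−0.16), in p38a-lox PyMT against PyMT 7 (0.015) and in PyMT against MMTV-Cre 5 (−0.057). In the interaction 9 were positive (0.42). Of 10 proteasome partners 0 were called, among them Psme3, a proteasome activator subunit (0.70 ± 0.199 in p38a-lox PyMT against p38a-lox, limma adjusted p = 0.129). There 7 of the 10 were positive (median 0.16), and in PyMT against MMTV-Cre 1 was (−0.23, beside 0.030 over all genes). In p38a-lox against MMTV-Cre 1 was positive (−0.13), and in p38a-lox PyMT against PyMT 8 were (0.24). In the interaction 10 were positive (0.31, beside −0.039). Of 15 tested other class I genes 0 were called, with 11 positive in p38a-lox against MMTV-Cre (median 0.093, beside 0.0005 over all genes). In p38a-lox PyMT against PyMT 6 were positive (−0.076), in PyMT against MMTV-Cre 7 (−0.0056) and in p38a-lox PyMT against p38a-lox 8 (0.022). Of 20 transcription factors and signalling genes of interferon 0 were called, with 5 positive in p38a-lox PyMT against p38a-lox (median −0.26, beside −0.021 over all genes). In p38a-lox against MMTV-Cre 13 were positive (0.14), in p38a-lox PyMT against PyMT 7 (−0.11) and in PyMT against MMTV-Cre 11 (0.057). Of 10 class II genes 0 were called, with H2-Oa, a modulator of class II loading, at 4.92 in p38a-lox PyMT and 6.20 in p38a-lox (−1.28 ± 0.309, limma adjusted p = 0.067).

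Among 12 tested genes induced by interferon gamma 1 was called lower in p38a-lox PyMT against p38a-lox, where 0.229% of genes were, and 0 in the other 4 comparisons. It was Ifi47, an interferon-inducible GTPase, at 5.43, 4.41, 4.14 and 4.10 in p38a-lox PyMT, 5.45, 4.62, 4.23 and 4.47 in PyMT, 7.08, 6.65, 5.82 and 5.84 in p38a-lox, and 4.85, 4.11, 4.30 and 4.70 in MMTV-Cre. The 4 p38a-lox arrays lay above all others. The difference was −1.83 ± 0.355 in p38a-lox PyMT against p38a-lox (limma adjusted p = 0.0292) and 1.86 ± 0.355 in p38a-lox against MMTV-Cre (limma adjusted p = 0.169). Both comparisons use the same p38a-lox arrays. Within the lower and higher title ranges the first was −1.95 and −1.71. Its call ended on leaving out p38a-lox replicate 1 or 2 or p38a-lox PyMT replicate 2, 3 or 4 (adjusted p up to 0.117). It also ended with only the arrays compared (0.0604) and without the 2 least correlated arrays (0.0785). In p38a-lox PyMT against p38a-lox Gbp2 was lower too (−1.86 ± 0.51, limma adjusted p = 0.114) and Gbp4 higher (0.66 ± 0.21, limma adjusted p = 0.178). There 3 of the 12 were positive (median −0.11). In p38a-lox against MMTV-Cre 10 were (0.18), in p38a-lox PyMT against PyMT 5 (−0.14) and in PyMT against MMTV-Cre 8 (0.067). In the interaction 3 were positive (−0.56, beside −0.039 over all genes).

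Of 19 tested genes stimulated by type I interferon 1 was called higher in PyMT against MMTV-Cre, where 0.881% of genes were. The list had 18 of 19 differences above 0 there and a median of 0.23, beside 0.030 over all genes. Its mean level overlapped, at 5.78 to 6.84 in PyMT and 5.45 to 6.82 in MMTV-Cre. The overlap lay in MMTV-Cre replicate 2 alone (6.82), while replicates 1, 3 and 4 of MMTV-Cre read 5.49, 5.45 and 5.46. That array also had the highest mean of its group for the 12 genes induced by interferon gamma (6.72). In p38a-lox PyMT against p38a-lox 10 of 19 differences were above 0, with a median of 0.012, beside −0.021 over all genes. It had 0 calls in the other 4 comparisons. The called gene was Oas1g, of the 2'-5' oligoadenylate synthetase family, at 9.42, 8.35, 8.53 and 9.03 in PyMT and 6.26, 8.33, 7.14 and 6.46 in MMTV-Cre. These groups did not overlap, by a narrow margin between PyMT replicate 2 and MMTV-Cre replicate 2. In p38a-lox PyMT it read 8.41, 8.21, 8.21 and 8.90, and in p38a-lox 6.17, 6.74, 7.13 and 6.87. Those groups did not overlap either, though the gene was not called there. The difference of PyMT and MMTV-Cre was 1.78 ± 0.383 (limma adjusted p = 0.0356), and 1.63 and 1.73 within the title ranges. Its call ended on leaving out MMTV-Cre replicate 1, 3 or 4, PyMT replicate 1, 3 or 4, or p38a-lox PyMT replicate 3 (adjusted p up to 0.129). It also ended with only the arrays compared (adjusted p = 0.156) and without the 2 least correlated arrays (0.105).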

How the data were processed

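Sorted luminal mammary cells were measured on Affymetrix mouse arrays with perfect-match probes. The deposited log2 values were made by the authors with RMA, per the submitters' processing notes, with version, settings and batch handling not given in the sources used here. The table held 45141 probe sets, with array medians from 4.63 to 4.88, so levels are relative within the array set and the number of arrays limits the precision. Probe sets were named by the platform annotation, in which 28898 carried exactly 1 symbol, 551 carried several and 15692 were not listed. By Entrez ID 28689 matched the RefSeq gene table of GRCm38.p6, which changed 0 symbols, and 209 kept the annotated symbol.

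The probe set highest on average over the 16 arrays stood for its gene, and 14410 of 17097 genes at or above 3.67 were tested. All single-symbol probe sets above the same level (22996) were also fitted. One model of 4 group means in limma 3.58.1 (R 4.3.3; 12 residual and 2.83 prior degrees of freedom) gave 5 two-sided moderated contrasts, with Benjamini-Hochberg adjustment over all genes or probe sets and calls at 0.05. Errors after ± are standard errors for differences and SD for group means. Simulated data of 14410 genes, with 50 genes changed at each fold, showed that the arrays could miss small changes. Over the 4 comparisons of groups 46% to 62% of 2-fold and 92% to 100% of 4-fold changes were called. Of 1.5-fold changes 10% to 22% were. All folds were planted together, which eases the adjusted threshold, so the rates can be too high where few genes change. In the p38a-lox comparisons 0 genes were called. The rates are for randomly chosen genes and do not hold for a gene of wide spread such as Tapbp (SE 0.475).

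Named genes are all members, up to 4 genes per pathway list with the smallest p in any contrast, and the 8 non-members with the highest correlation to the members' mean. The members and lists were chosen with earlier results of these data known. Promoter windows and positions are from RefSeq. Alternatives were a filter at the median or none, averaging of a gene's probe sets, trend and robust eBayes, a second quantile normalization, centring on array medians, arrayWeights, only the arrays compared, the title number range as a block, leaving out the 2 least correlated arrays, and leaving out each array in turn. The same settings were applied to Ifi47 and Oas1g after their calls were seen.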

Additional observations from a re-analysis of the deposited data

Results flagged for a closer look

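Among 72 sets of 4 arrays, the 18 member probe sets in each of 4 groups, 4 had an extreme array with a gap over the range above Dixon's 95% critical value. A share of about 1 in 20 would hold for independent sets. These sets share arrays, and some probe sets share signal, so the count was not set against that share. PyMT replicate 4 was lowest for H2-K1 in 2 probe sets, at 11.91 for 1425336_PM_x_at with the nearest PyMT array at 12.30, and at 10.58 for 1427746_PM_x_at with the nearest at 11.28. PyMT replicate 4 and p38a-lox replicate 2 were the 2 least correlated arrays (median correlation with the others 0.934 each). PyMT replicate 4 also had the lowest mean of the luminal markers (9.03) and the highest of the leukocyte markers (5.65). Of H2-D1 (1451784_PM_x_at), p38a-lox replicate 1 was highest, at 11.81 with the nearest p38a-lox array at 11.60. Of Psmb8 (1422962_PM_a_at), p38a-lox PyMT replicate 1 was highest, at 10.17 with the nearest p38a-lox PyMT array at 9.37.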

How the results depend on the processing

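No paired analysis was possible because the labels carry no replicate numbers and no pairing. Leaving out any single array gave 0 called members and 0 called member probe sets in all 5 comparisons. With arrayWeights, which gave arrays weights from 0.206 (p38a-lox replicate 2) to 4.36 (p38a-lox replicate 3), 1 member (Tapbp) and 2 member probe sets were called in PyMT against MMTV-Cre, and 1 member probe set in p38a-lox PyMT against p38a-lox; the other settings gave 0. Counts of all genes called moved more. In PyMT against MMTV-Cre they were 1268 with arrayWeights, 55 with only the arrays compared, 111 without the 2 least correlated arrays and 49 to 443 with 1 array left out, beside 182. In p38a-lox PyMT against p38a-lox they were 1416 with arrayWeights, 169 with only the arrays compared and 26 to 230 with 1 array left out, beside 112. In p38a-lox against MMTV-Cre they were 1 with no filter, 8 with arrayWeights and 0 to 4 with 1 array left out, beside 0, and in p38a-lox PyMT against PyMT 5 with arrayWeights and 0 to 3 with 1 array left out, beside 0.

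Member differences, none of them called, changed sign under some settings; the cause was not tested. The largest to turn were H2-D1 in PyMT against MMTV-Cre (−0.49 as reported) and Psmb8 in the interaction (0.39 as reported). With the mean of all probe sets, p38a-lox against MMTV-Cre gave −0.018 for H2-K1 and 0.036 for H2-D1, p38a-lox PyMT against PyMT gave −0.18 for H2-D1 and 0.090 for Psmb9, the interaction gave −0.22 for H2-D1 and 0.087 for Psmb9, and PyMT against MMTV-Cre gave 0.12 for H2-D1 and −0.34 for Psmb9. With arrayWeights, Tapbp was 0.41 in p38a-lox against MMTV-Cre, Psmb10 −0.088 in p38a-lox PyMT against PyMT, Psmb8 −0.15 in the interaction and H2-K1 0.089 in PyMT against MMTV-Cre. Without the 2 least correlated arrays, Psmb8 was −0.010 in p38a-lox against MMTV-Cre, H2-K1 0.059 in PyMT against MMTV-Cre and Psmb10 0.12 in p38a-lox PyMT against p38a-lox. Centring gave 0.016 for H2-K1 in p38a-lox PyMT against PyMT and 0.018 for Psmb10 in p38a-lox PyMT against p38a-lox, and the title range block 0.025 for H2-K1 in p38a-lox PyMT against PyMT.

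With 1 array left out, p38a-lox against MMTV-Cre ranged from −0.36 to 0.47 for Tapbp, −0.19 to 0.0089 for H2-D1 and −0.010 to 0.42 for Psmb8. In p38a-lox PyMT against PyMT it ranged from −0.12 to 0.050 for H2-K1, −0.26 to 0.033 for Psmb9 and −0.094 to 0.24 for Psmb10. In PyMT against MMTV-Cre it ranged from −0.13 to 0.059 for H2-K1, −0.0056 to 0.50 for Psmb10 and −0.020 to 0.22 for Psmb9, and in p38a-lox PyMT against p38a-lox from −0.33 to 0.12 for Psmb10.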
